A study of Mus musculus with 19 samples.

Results

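Kupffer cells are the macrophages that reside in liver sinusoids, and they keep their identity through a small set of transcription factors. The set described here has 9 genes, chosen by name and not by a rule on their values, but with earlier results of these data known. The genes are Nr1h3, Rxra, Spic, Spi1, Irf8, Maf, Zeb2, Klf2 and Klf4. All 9 were found among the 33919 gene identifiers of the table, and all 9 passed the filter on low values.

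RNA of flow-sorted liver macrophages from female C57BL/6 mice was sequenced in 19 libraries amplified by SMART-seq. Chow_EmKCs (n = 6) were CLEC2+ TIMD4+ cells, taken as Kupffer cells of embryonic origin, of mice on chow. MCD_EmKCs (n = 6) were cells of the same gate from mice fed for 4 weeks a diet without methionine and choline (MCD), a standard way to induce steatohepatitis. MCD_MoKCs (n = 7) were CLEC2+ TIMD4- cells of mice on that diet, taken as Kupffer cells derived from monocytes. All mice were wild type, so origin was read from TIMD4 at the cell surface and no genetic fate mapping is named. No chow-fed MoKC group is part of the design, and the labels give no ages. Nothing in the labels says which libraries came from separate animals, so the p-values measure the spread between these libraries, which may be technical.

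PU.1, encoded by Spi1, is the pioneer ETS factor that opens macrophage enhancers, and IRF8 binds beside it at many of them. In mice, a monocyte that settles in the emptied Kupffer cell niche switches on Nr1h3 and Spic, and LXRα, the product of Nr1h3, is needed for the Kupffer cell programme. LXRα binds DNA as a heterodimer with a retinoid X receptor such as RXRα, is activated by oxysterols and drives cholesterol efflux and lipid synthesis genes. SPIC is an ETS relative of PU.1 that is induced by heme and maintains iron-recycling macrophages. c-MAF restrains macrophage self-renewal, ZEB2 is an E-box repressor that keeps tissue macrophages in their identity, and KLF2 and KLF4 are zinc-finger factors that bind CACCC boxes.

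Of the 9 factors, 1 fell with the diet in embryo-derived cells, 3 were lower in monocyte-derived than in embryo-derived cells of the same diet, and 4 were lower in monocyte-derived cells than in chow cells. The factor that fell with the diet was Nr1h3. Those lower by origin were Spic, Rxra and Klf2, and all 4 differed in the third comparison. No factor rose. Irf8, Spi1, Maf, Zeb2 and Klf4 passed the threshold in none of the 3 comparisons.

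The background gives these counts their scale. With limma on log2(value + 1) and a Benjamini-Hochberg adjusted p under 0.05, 4.08% of the 14875 genes tested differed between MCD_EmKCs and Chow_EmKCs, and 1.58% were lower in MCD_EmKCs. Between MCD_MoKCs and MCD_EmKCs, 10.5% differed and 4.9% were lower in MCD_MoKCs. Between MCD_MoKCs and Chow_EmKCs, 16.8% differed and 8.08% were lower in MCD_MoKCs. The values of the 2 groups did not overlap for 2.96%, 4.86% and 7.97% of genes in the same order of comparisons. Among the factors this held for 1, 3 and 2 genes: Nr1h3, then Spic, Rxra and Klf2, then Nr1h3 and Klf2. The median log2 fold change of the 9 factors was -0.0039, -0.25 and -0.38, beside -0.04, 0.02 and -0.01 over all genes tested. The comparisons share libraries, so the 3 counts are not independent of each other.

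**Figure D1:**
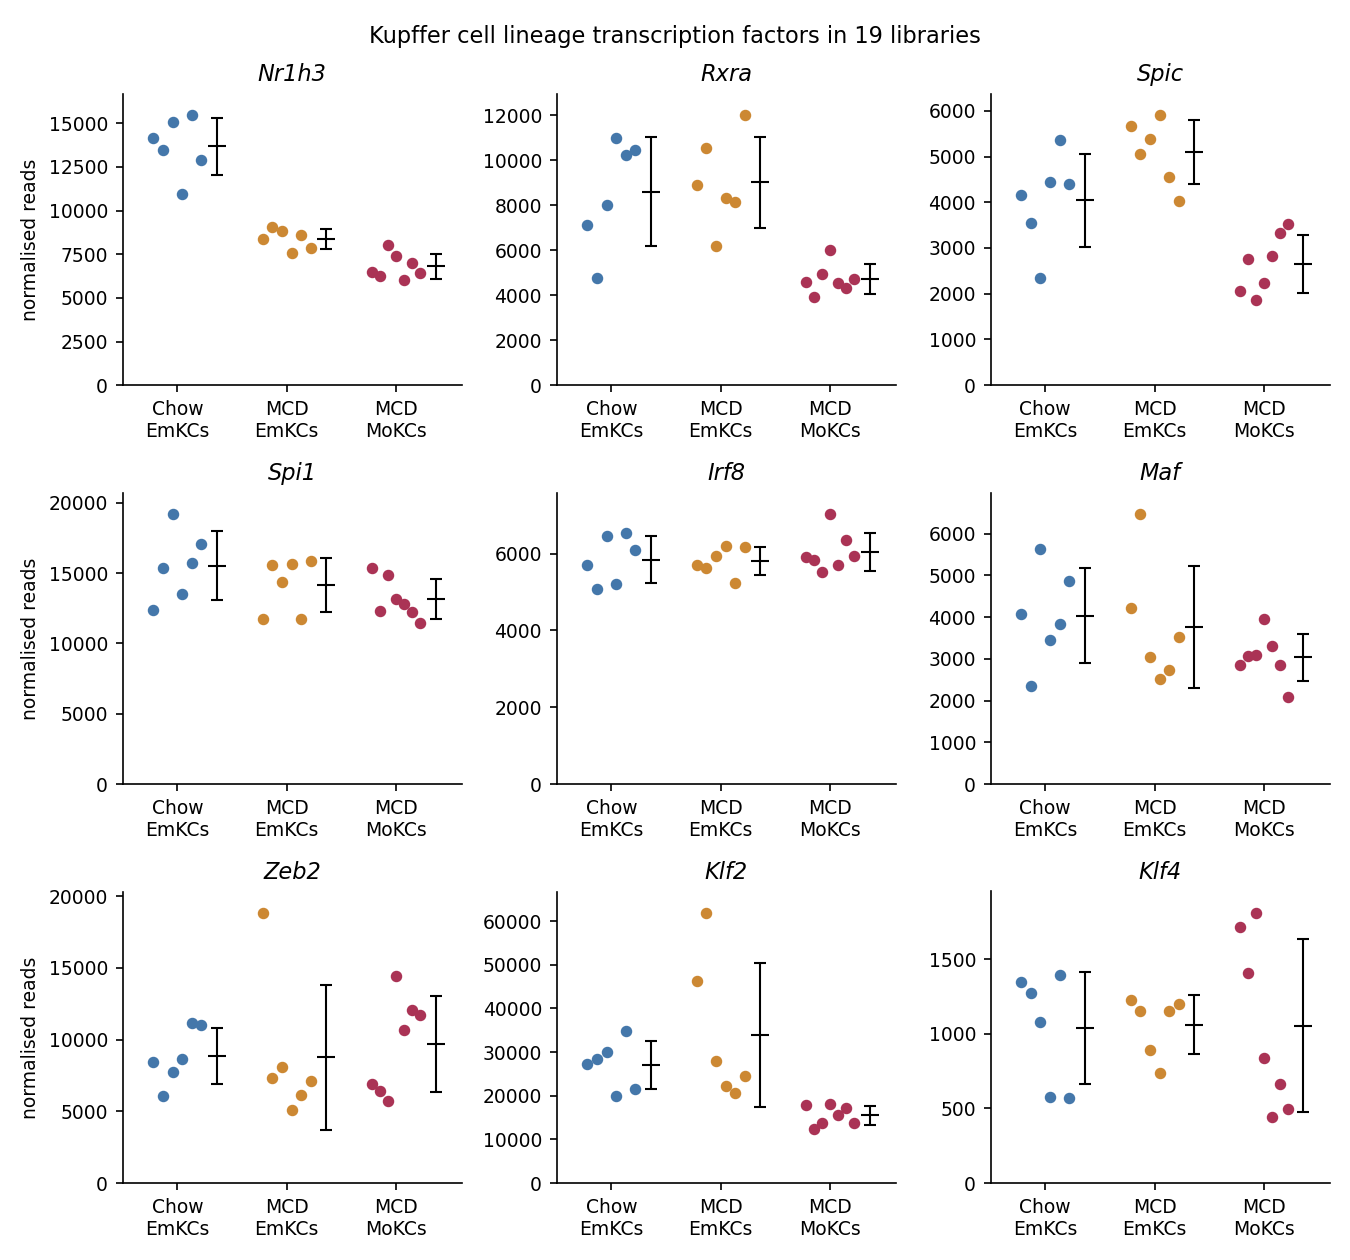
Normalised reads of the 9 factors in every library of Chow_EmKCs, MCD_EmKCs and MCD_MoKCs (points, in replicate order within a group), with the mean and SD of each group at the right of its points. Nr1h3 stands lower in both MCD groups, Spic, Rxra and Klf2 stand lower in MCD_MoKCs, and Irf8 stays between 5084 and 7029 in all libraries.

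Promoter sequence of the 4 factors that differed is shown because it is the stretch on which the other factors of the set could act. Of the 9 genes, 7 have an entry in the RefSeq promoter set of build GRCm38.p6. Each sequence is the 250 bases before a RefSeq start of transcription, 5′ to 3′ on the strand of the gene. RefSeq lists 2 starts each for Nr1h3 and Rxra, of which the more upstream was used, and 1 each for Spic and Klf2. The GENCODE genes, whose coordinates are given with the values, reach further upstream, so that the windows of Nr1h3, Spic and Rxra lie inside them and that of Klf2 overlaps its gene. Capitals mark a match, on either strand, to 1 of the motifs listed after the sequences. The windows are chr2:91195117-91195366 on the minus strand for Nr1h3, chr10:88683024-88683273 on the minus strand for Spic, chr2:27676951-27677200 on the plus strand for Rxra and chr8:72318812-72319061 on the plus strand for Klf2.
Nr1h3: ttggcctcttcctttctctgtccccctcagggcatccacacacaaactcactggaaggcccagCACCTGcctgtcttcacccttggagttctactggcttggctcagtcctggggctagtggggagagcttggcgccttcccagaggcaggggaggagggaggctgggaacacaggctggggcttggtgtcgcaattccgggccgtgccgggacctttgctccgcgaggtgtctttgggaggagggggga
Spic: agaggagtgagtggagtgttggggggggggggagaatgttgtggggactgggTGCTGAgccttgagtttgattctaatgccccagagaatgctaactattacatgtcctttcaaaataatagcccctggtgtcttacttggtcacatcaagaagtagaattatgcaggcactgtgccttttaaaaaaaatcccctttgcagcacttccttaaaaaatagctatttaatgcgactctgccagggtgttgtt
Rxra: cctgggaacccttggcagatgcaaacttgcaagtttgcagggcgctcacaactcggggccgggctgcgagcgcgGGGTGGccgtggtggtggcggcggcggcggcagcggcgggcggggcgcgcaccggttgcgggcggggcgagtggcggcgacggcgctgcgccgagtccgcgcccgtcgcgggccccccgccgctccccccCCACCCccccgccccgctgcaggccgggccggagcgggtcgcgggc
Klf2: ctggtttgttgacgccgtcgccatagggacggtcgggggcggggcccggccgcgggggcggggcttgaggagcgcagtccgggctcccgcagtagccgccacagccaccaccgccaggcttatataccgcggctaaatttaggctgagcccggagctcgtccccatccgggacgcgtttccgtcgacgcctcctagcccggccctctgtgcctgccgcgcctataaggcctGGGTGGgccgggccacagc

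The motifs searched, on both strands, were the PU.1 core GAGGAA, the ZEB E-box CAGGTG, the KLF box CCACCC, the MAF half-site TGCTGA and the nuclear receptor half-site AGGTCA. An ETS-IRF composite, GGAA and GAAA with any 2 bases between them, and an LXR direct repeat, AGGTCA repeated after 4 bases, were searched as well. The Nr1h3 window holds 1 ZEB E-box, which 17.2% of 32851 RefSeq promoter windows of the same length also hold. The Spic window holds 1 MAF half-site (16.1% of windows). The Rxra window holds 2 KLF boxes and the Klf2 window 1 (28.1% of windows hold at least 1). None of the 4 windows holds these exact letters of the PU.1 core, which 23.3% of windows hold, or of the nuclear receptor half-site, which 14.0% hold. The composite and the direct repeat were in 2.30% and 0.0152% of all windows and in none of the 4. A match describes letters in the window and says nothing of binding.

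The groups stand on markers as follows. Clec4f, the Kupffer cell C-type lectin, averaged 219733 normalised reads in chow cells, 157671 in embryo-derived and 21839 in monocyte-derived cells of the MCD diet. Together, the 13 Kupffer cell identity genes took 2.74 to 3.50% of reads in Chow_EmKCs, 1.97 to 2.70% in MCD_EmKCs and 0.509 to 0.813% in MCD_MoKCs. All 13 were lower in MCD_MoKCs than in MCD_EmKCs. Among them were Timd4, whose product set these groups apart in sorting, and Clec1b, which encodes CLEC2, for which both were sorted positive. Under quantile normalization Clec1b and Il18bp missed the threshold (limma adjusted p = 0.296 and 0.22). Il18bp also missed it with edgeR (adjusted p = 0.0551), DESeq2 (0.0522) and the replicate block (0.0536). The 11 monocyte genes took 0.0125 to 0.0187%, 0.00846 to 0.0129% and 0.0388 to 0.0735%, with Vcan at 0 in all Chow_EmKCs and Ly6c2 at 0 in all MCD_EmKCs libraries. Total reads per library ran from 11642240 to 30983487, with 14643 to 16847 genes detected. In a bulk sample, fewer cells of a type and less RNA per cell cannot be told apart. The library numbers in the table, whose meaning is not given, were divided here into a set up to 33 and a set from 37. The set up to 33 holds 3 Chow_EmKCs, 3 MCD_EmKCs and 5 MCD_MoKCs libraries, and the set from 37 holds 3, 3 and 2. Within-set values are printed beside each call of a factor and beside some of the other differences.

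RNA of Nr1h3, which encodes LXRα, was lower in both MCD groups than in chow cells. RNA of Rxra, which encodes the partner RXRα, was lower in monocyte-derived cells. Nr1h3 (ENSMUSG00000002108, chromosome 2, 91184061 to 91202834, minus strand, mm10) ran from 10950 to 15467 normalised reads in Chow_EmKCs, with a median of 13834. In MCD_EmKCs it ran from 7559 to 9037 with a median of 8462, and in MCD_MoKCs from 6036 to 8023 with a median of 6481. Every MCD library lay below every chow library, while the 2 MCD groups overlapped. The mean fell from 13671 ± 1642 (SD, n = 6) in Chow_EmKCs to 8361 ± 572 (n = 6) in MCD_EmKCs, a ratio of 0.612, or -0.70 as log2 fold change (SE 0.11, limma adjusted p = 0.000263). Within the numbers up to 33 the change was -0.71 with a limma adjusted p of 0.0534, and within those from 37 it was -0.70 with 0.0417.

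In MCD_MoKCs the Nr1h3 mean was 6808 ± 709 (n = 7), 0.498 of the chow mean (log2 fold change -1.003, SE 0.11, limma adjusted p = 1.31e-07). It was -1.06 (0.000145) within the numbers up to 33 and -0.95 (0.004) within those from 37. Against MCD_EmKCs the difference of -0.30 (95% interval -0.52 to -0.08, limma adjusted p = 0.0807) did not pass the threshold. All 7 MCD_MoKCs libraries were below the MCD_EmKCs median. Within the numbers up to 33 and from 37 this difference was -0.36 (limma adjusted p = 0.196) and -0.25 (0.5825). Under quantile normalization it was -0.15 (limma adjusted p = 0.525). Nr1h3 was 1 of the steadier factors, with a coefficient of variation of 12.0%, 6.84% and 10.4% in the 3 groups. The median gene with a mean of at least 100 varied by 30.7%, 31.05% and 32.2%. The 10 hepatocyte markers, a cell type that also expresses Nr1h3 and Rxra, moved with the diet: they took 0.0208 to 0.0610% of reads in Chow_EmKCs, 0.00247 to 0.0156% in MCD_EmKCs and 0.00228 to 0.00638% in MCD_MoKCs. None of the 10 was at 0 in a whole group, 7 fell with the diet and all 10 were lower in MCD_MoKCs than in Chow_EmKCs. With edgeR the last 2 counts were 6 and 7. DESeq2 and the fit without the filter called 8 lower in MCD_MoKCs than in Chow_EmKCs, and a term for library number 9. Mitochondrial reads also moved with the diet, at 0.511 to 1.05% in Chow_EmKCs and 0.155 to 0.317% in MCD_EmKCs without overlap, and stood at 0.244 to 0.729% in MCD_MoKCs. The part of either share in the fall of Nr1h3 was not tested.

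Rxra (ENSMUSG00000015846, chromosome 2, 27676440 to 27762957, plus strand) ran from 4744 to 10999 in Chow_EmKCs with a median of 9111, and from 6194 to 11996 in MCD_EmKCs with a median of 8624. In MCD_MoKCs it ran from 3915 to 5985 with a median of 4598. The MCD_MoKCs libraries lay below all MCD_EmKCs libraries, and Chow_EmKCs 2 and MCD_MoKCs crossed. The mean was 9017 ± 2020 in MCD_EmKCs and 4714 ± 648 in MCD_MoKCs, or -0.92 as log2 fold change (SE 0.17, limma adjusted p = 0.00065), and -0.81 (0.032) and -1.05 (0.00562) within the 2 number sets. Against Chow_EmKCs, with a mean of 8591 ± 2413, it was -0.82 (SE 0.17, limma adjusted p = 0.00118). That second difference was -0.45 within the numbers up to 33 (limma adjusted p = 0.261) and -1.23 within those from 37 (0.000981). The diet difference in embryo-derived cells was 0.10, with a 95% interval of -0.28 to 0.47, and 0.37 (0.548) and -0.18 (0.693) within the sets.

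Spic was lower in monocyte-derived cells. The gene (ENSMUSG00000004359, chromosome 10, 88674772 to 88685015, minus strand) ran from 2344 to 5360 in Chow_EmKCs with a median of 4288, and from 4037 to 5906 in MCD_EmKCs with a median of 5219. In MCD_MoKCs it ran from 1853 to 3522 with a median of 2755. The 7 MCD_MoKCs libraries lay below all 6 MCD_EmKCs libraries, while Chow_EmKCs overlapped both. The mean fell from 5098 ± 706 in MCD_EmKCs to 2655 ± 632 in MCD_MoKCs, a ratio of 0.521, or -0.96 as log2 fold change (SE 0.18, limma adjusted p = 0.000456). Within the numbers up to 33 this was -1.21 (limma adjusted p = 0.00209) and within those from 37 -0.48 (0.268).

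Against the chow mean of 4044 ± 1018, Spic in MCD_MoKCs differed by -0.60 (SE 0.18, limma adjusted p = 0.0192). That call rested on Chow_EmKCs 5, the highest chow library: without it the change was -0.51 with a limma adjusted p of 0.0623. It was also past the threshold in neither number set alone, at -0.49 (0.205) up to 33 and -0.46 (0.196) from 37. The diet difference in embryo-derived cells was 0.37 (95% interval -0.01 to 0.75, limma adjusted p = 0.332), with 5 of 6 MCD_EmKCs libraries above the chow median. It was 0.72 (0.175) within the numbers up to 33 and 0.01 (0.984) within those from 37.

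The lineage-determining pair passed no test. Spi1 (ENSMUSG00000002111, chromosome 2, 91082390 to 91115756, plus strand) ran from 12364 to 19190 in Chow_EmKCs, 11724 to 15838 in MCD_EmKCs and 11485 to 15352 in MCD_MoKCs, with medians of 15529, 14987 and 12768. The 3 groups overlapped, and the log2 differences were -0.13, -0.10 and -0.23 for diet, origin and both, with 95% intervals reaching no further than -0.48 and 0.15. Irf8 (ENSMUSG00000041515, chromosome 8, 120736358 to 120756694, plus strand) ran from 5084 to 6529, 5240 to 6189 and 5531 to 7029, with medians of 5902, 5831 and 5918. Its log2 differences were -0.0039, 0.05 and 0.05, and the 95% intervals reached from -0.23 to 0.28. The coefficients of variation of Irf8 were 10.6%, 6.28% and 8.32%. Irf8 is also high in B cells and plasmacytoid dendritic cells, whose markers took at most 0.00843% and 0.0281% of reads in any library. Markers of conventional dendritic cells took 0.00191 to 0.00704%, 0.00177 to 0.00767% and 0.00512 to 0.0175% in the 3 groups. Of 7 such genes tested, 3 were higher by origin and 0 lower, and with edgeR 1 was higher. The part of these cell types in the Irf8 values was not tested.

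Maf (ENSMUSG00000055435, chromosome 8, 115682942 to 115707794, minus strand) ran from 2350 to 5646 in Chow_EmKCs, 2521.5 to 6470 in MCD_EmKCs and 2096 to 3964 in MCD_MoKCs, with medians of 3960, 3286 and 3071. The groups overlapped throughout. Its log2 differences of -0.13, -0.25 and -0.38 did not pass the threshold, and the interval of the last ran from -0.81 to 0.04. Within the numbers up to 33 and from 37, the diet difference was 0.21 (limma adjusted p = 0.824) and -0.47 (0.297), and the last was -0.22 (0.734) and -0.71 (0.0754). The antisense gene Gm15655 shares 440 exon bases with Maf on the opposite strand and stood at 11.1 to 37.8% of the Maf value in a library. The sources used here give no strand setting for the counting, so reads of the shared bases cannot be assigned between Maf and Gm15655.

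Zeb2 and Klf4 had means that were nearly level across groups but split the monocyte-derived libraries. Zeb2 (ENSMUSG00000026872, chromosome 2, 44983632 to 45117395, minus strand) averaged 8851 ± 1946 in Chow_EmKCs, 8766 ± 5031 in MCD_EmKCs and 9686.5 ± 3354 in MCD_MoKCs. In chow libraries it ran from 6093 to 11134, with a median of 8539. In MCD_EmKCs it was 18814 in replicate 1 and 5078 to 8107 in the other libraries. In MCD_MoKCs it was 5699 to 6882 in replicates 1 to 3 and 10672 to 14423 in replicates 4 to 7. Klf4 (ENSMUSG00000003032, chromosome 4, 55527143 to 55532466, minus strand) averaged 1040.3 ± 376, 1061 ± 198 and 1054 ± 579. It ran from 572 to 1391 in chow libraries (median 1177) and from 740 to 1224 in MCD_EmKCs (median 1156). In MCD_MoKCs it was 1407 to 1808 in replicates 1 to 3 and 446 to 839 in replicates 4 to 7. Thus the monocyte-derived libraries high in Klf4 were the ones low in Zeb2, without overlap for either gene. The share of all genes that separate these libraries likewise is not given here. The split is therefore not shown to be particular to Klf4 and Zeb2.

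**Figure D2:**
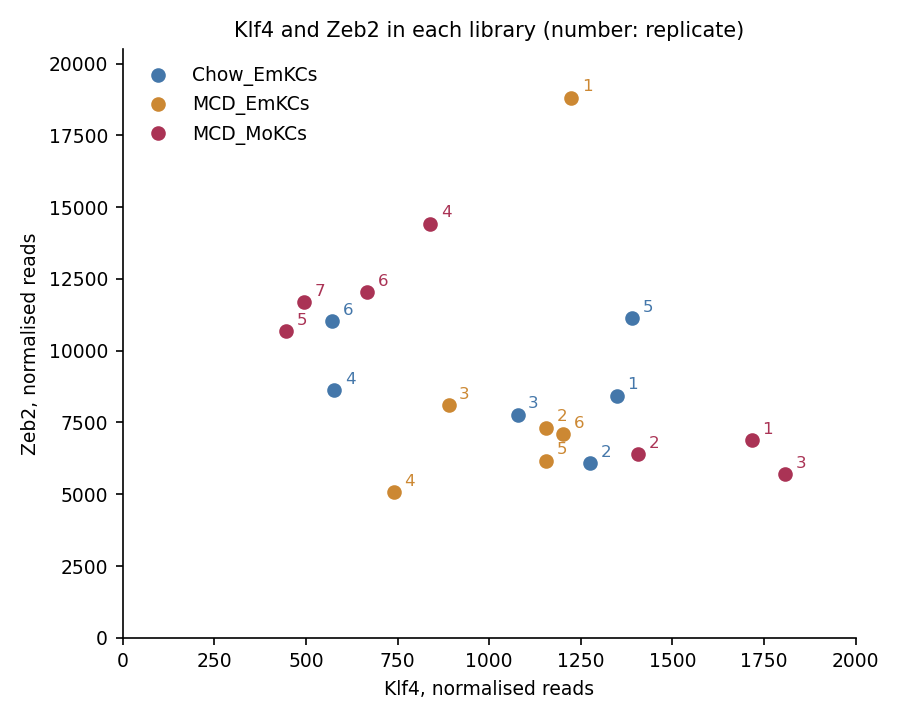
Normalised reads of Klf4 (x axis) against Zeb2 (y axis) in each of the 19 libraries, coloured by group and numbered by replicate. MCD_MoKCs 1 to 3 lie at the lower right, MCD_MoKCs 4 to 7 at the upper left, and MCD_EmKCs 1 stands alone at 18814 for Zeb2.

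The same libraries differed in their mitochondrial share of reads, 0.534 to 0.729% in MCD_MoKCs 1 to 3 and 0.244 to 0.359% in MCD_MoKCs 4 to 7. They also differed without overlap in total reads, 11642240 to 16750655 and 19215122 to 30983487, in genes detected, 15216 to 15705 and 16274 to 16847, and in library number, 17 to 20 and 30 to 44. The split was found in the data, is not a group of the study and was given no test; the part of library quality or depth in it was not tested. Every other factor overlapped between these parts, for example Rxra at 3915 to 4956 and 4313 to 5985, and Nr1h3 at 6263 to 8023 and 6036 to 7426. For Zeb2, the log2 difference between MCD_MoKCs and MCD_EmKCs was 0.21 over all libraries (95% interval -0.33 to 0.74, limma adjusted p = 0.692). Without MCD_EmKCs 1 it was 0.46 (limma adjusted p = 0.1965), and the diet difference went from -0.13 to -0.38 (0.433). The origin difference of Zeb2 was -0.33 with MCD_MoKCs 1 to 3 alone and 0.61 with 4 to 7 alone. These parts were chosen after the values were seen, so that the 2 differ follows from the choice. Within the library numbers up to 33 and from 37 the origin difference was -0.33 (limma adjusted p = 0.661) and 0.97 (0.00874). The diet difference within these sets was 0.49 (limma adjusted p = 0.619) and -0.75 (0.0389). The set from 37 holds only 2 MCD_MoKCs libraries. For Klf4, the origin difference was -0.19 over all libraries (95% interval -0.83 to 0.45, limma adjusted p = 0.787). With MCD_MoKCs 1 to 3 alone it was 0.65 and with 4 to 7 alone -0.81, which likewise follows from the choice. Within the numbers up to 33 and from 37 it was 0.03 (0.974) and -0.81 (0.354).

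The antisense gene Zeb2os shares 653 exon bases with Zeb2 on the opposite strand. It moved with Zeb2 across libraries: it had 2547 normalised reads in MCD_EmKCs 1 and 378 to 671 in the other MCD_EmKCs libraries, 315 to 483 in MCD_MoKCs 1 to 3 and 816 to 1130 in MCD_MoKCs 4 to 7. It stood at 5.53 to 13.5% of the Zeb2 value in a library, and, as for Maf, reads of the shared bases cannot be assigned.

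Klf2, too, was lower in monocyte-derived cells. The gene (ENSMUSG00000055148, chromosome 8, 72319033 to 72321656, plus strand) ran from 20013 to 34935 in Chow_EmKCs with a median of 27815. In MCD_EmKCs it ran from 20737 to 61823 with a median of 26203, and replicates 1 and 2, at 46308 and 61823, stood above the other 4. In MCD_MoKCs it ran from 12370 to 18080 with a median of 15516, below every library of both other groups. Its mean was 15499 ± 2262 in MCD_MoKCs, beside 33920 ± 16534 in MCD_EmKCs and 27012 ± 5507 in Chow_EmKCs. The log2 fold change was -1.02 against MCD_EmKCs (SE 0.20, limma adjusted p = 0.0012) and -0.79 against Chow_EmKCs (SE 0.20, limma adjusted p = 0.00695). Within the numbers up to 33, which hold both high MCD_EmKCs libraries, the difference from MCD_EmKCs was -1.49 (limma adjusted p = 0.000234). Within those from 37 it was -0.54 (0.227). Against Chow_EmKCs the values were -0.89 (0.00937) and -0.68 (0.0683). The diet difference in embryo-derived cells was 0.23, with a 95% interval of -0.21 to 0.66, and 0.60 (limma adjusted p = 0.253) and -0.14 (0.799) within the 2 sets.

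Klf2 and Klf4 belong to genes that can change while tissue is digested. The 14 measured genes of a list of isolation-responsive genes, which contains neither, took 2.06 to 2.91% of reads in Chow_EmKCs, 3.04 to 3.65% in MCD_EmKCs and 2.32 to 3.35% in MCD_MoKCs. Of these 14, 7 rose with the diet, and 2 were higher and 3 lower by origin. With the replicate block these counts were 5, 3 and 1, as Dusp1 and Jund missed the threshold in both comparisons, and under quantile normalization 5 rose with the diet. With edgeR 1 was higher by origin. None was at 0 in a group. In MCD_EmKCs 1 and 2, the libraries high in Klf2, the share was 3.04 and 3.60%. In MCD_EmKCs 3 to 6 it ran from 3.10 to 3.65%. Endothelium also expresses Klf2. The 10 sinusoidal endothelial markers took 0.0379 to 0.0552%, 0.0320 to 0.0594% and 0.0169 to 0.0715% of reads, with 3 of 10 higher and 2 lower by origin and none at 0 in a group. In MCD_MoKCs against Chow_EmKCs, 7 of the 10 were higher and 2 lower, and with the diet 2 were higher and none lower. Stab2, the highest of them, averaged 6019, 5713 and 2365 normalised reads in the 3 groups. The part of isolation or of endothelial RNA in the Klf2 difference was not tested.

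**Figure D3:**
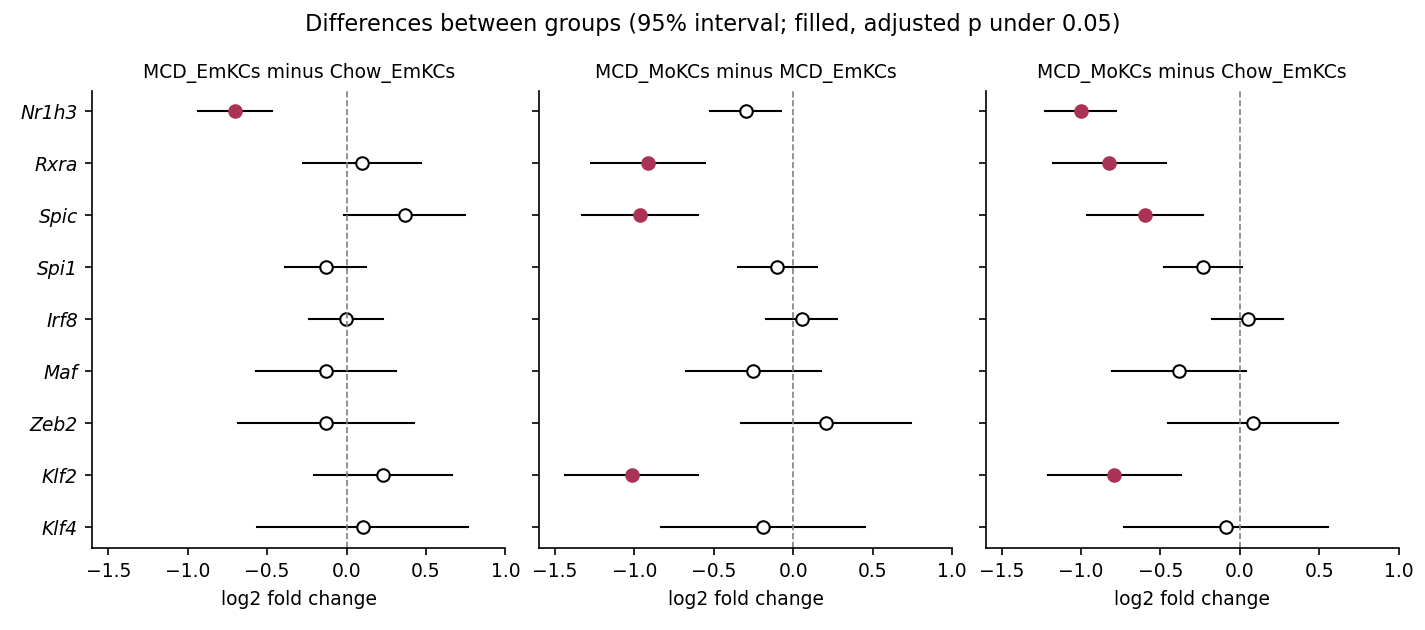
Log2 fold changes (points) with 95% intervals (lines) of the 9 factors in the 3 comparisons, the direction of each given above its panel. Filled points passed a limma adjusted p under 0.05: Nr1h3 at -0.70 on the left, Rxra, Spic and Klf2 between -1.02 and -0.92 in the middle, and these 4 between -1.003 and -0.60 on the right.

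Levels per kilobase of exon divide the reads by the joined length of all annotated exons of a gene. This length was 19942 bases for Zeb2, 8241 for Maf and 1847 for Klf2. Which transcripts were expressed was not examined, so the order of the factors depends on this choice of length. In Chow_EmKCs, Klf2 was highest at 14625 ± 2981 normalised reads per kilobase, followed by Spi1 at 5764 ± 906 and Nr1h3 at 5436 ± 653, which overlapped each other. Rxra at 1573 ± 442, Spic at 1053 ± 265 and Irf8 at 829 ± 87.6 came next, each overlapping its neighbour. Maf at 490 ± 138, Zeb2 at 444 ± 97.6 and Klf4 at 341 ± 123 were lowest and overlapped likewise, and no library of these 3 reached the lowest Irf8 library. In MCD_EmKCs the order of means was the same, but the ranges of Spi1 at 5252 ± 719 and Nr1h3 at 3324 ± 227 no longer overlapped. In MCD_MoKCs, Klf2 at 8392 ± 1225, Spi1 at 4885 ± 532 and Nr1h3 at 2707 ± 282 were each apart from the next. From Rxra, at 863 ± 119, down to Klf4, at 346 ± 190, all neighbours overlapped, and Irf8 at 856 ± 71.2 stood between Rxra and Spic at 691 ± 165. Among 13996 tested genes with an exon length, all 9 factors were above the 82nd percentile of level per kilobase in every group, and Klf2 was at 99.6 in Chow_EmKCs and 99.3 in MCD_MoKCs.

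**Figure D4:**
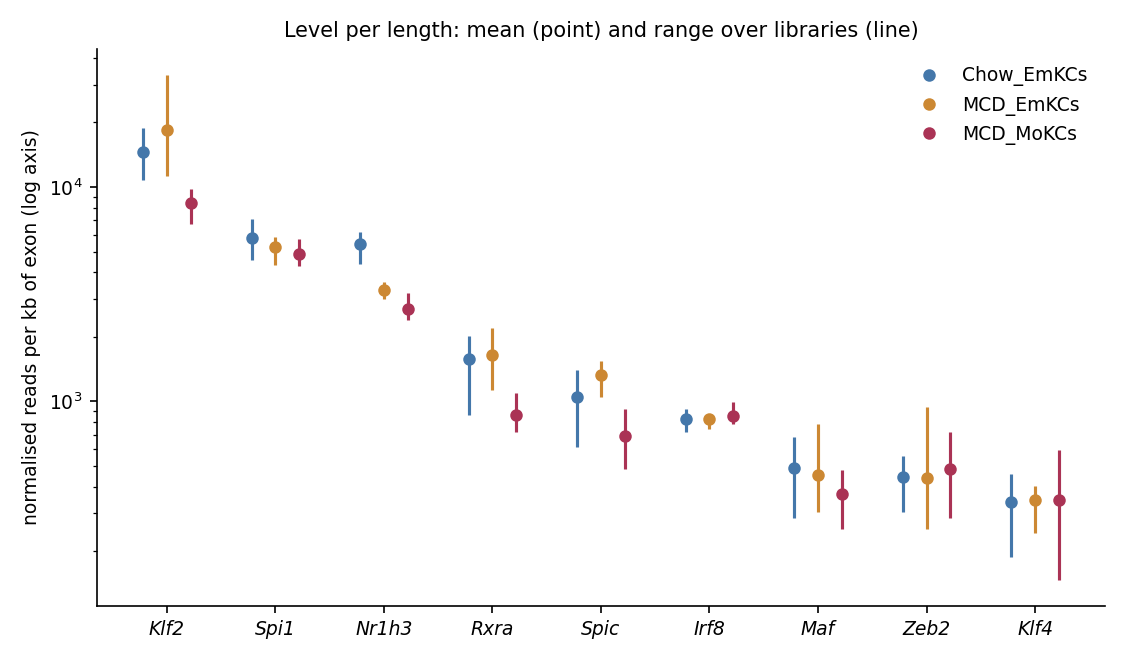
Normalised reads per kilobase of exon, on a log axis, of the 9 factors in the 3 groups; points are means and lines run from the lowest to the highest library. Klf2 leads in every group, and the distance from Spi1 to Nr1h3 widens from the chow group to the MCD groups.

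Ratios within a library do not depend on how that library was scaled. For 5 pairs of related factors and 3 comparisons, none of 15 exact two-sided permutation tests passed 0.05 after Benjamini-Hochberg adjustment over the 18 tests planned; 4 had an unadjusted p under 0.05. The log2 ratio of Spic to Spi1 was -1.47 ± 0.31 in MCD_EmKCs and -2.34 ± 0.49 in MCD_MoKCs, a difference of -0.87 (exact permutation p = 0.00466, adjusted 0.0629). Without MCD_EmKCs 6 that adjusted p became 0.0455. The ratio of Nr1h3 to Nr1h2, which encodes the widely expressed LXRβ, was 2.56 ± 0.34 in Chow_EmKCs, 2.13 ± 0.33 in MCD_EmKCs and 1.81 ± 0.34 in MCD_MoKCs. Its difference between MCD_MoKCs and Chow_EmKCs was -0.76 (exact permutation p = 0.00699, adjusted 0.0629). Nr1h2 itself was at 2372 ± 678, 1940.4 ± 427 and 1971 ± 391 normalised reads and passed no test. The ratio of Rxra to Rxrb differed by -0.60 between MCD_MoKCs and MCD_EmKCs (exact permutation p = 0.0152, adjusted 0.0909).

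Genes whose profile over the 19 libraries was most like that of a factor were sought among 9442 genes by the root mean square difference of centred log2 values. For Nr1h3 these were Cdv3 (0.167), the transferrin gene Trf (0.180) and the actin-binding adaptor Dbnl (0.184), where Nr1h3 itself varied by 0.441. For Rxra they were the syndecan gene Sdc3 (0.222), plakoglobin Jup (0.256) and Anks1 (0.267), beside its own 0.522. For Klf2, N4bp2l1 (0.264) and the metalloproteinase inhibitor Timp2 (0.353) were among the nearest, beside 0.586. For Spic, the nearest were Klf10 (0.304), Tmem268 (0.317) and Arap1 (0.318), beside 0.508. Spic thus had no profile as near in relation to its own variation as Nr1h3 and Rxra had.

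The relatives of these factors did not share 1 direction. Of 84 other factors listed by family or role, 74 were tested. With the diet 10 were higher and 3 lower, by origin 11 and 5, and in MCD_MoKCs against Chow_EmKCs 15 and 8. Among nuclear receptors, Pparg, the lipid-sensing receptor of alveolar macrophages, had means of 355 ± 170, 868 ± 178 and 1497 ± 230 normalised reads. It rose by 1.39 with the diet (SE 0.25, limma adjusted p = 0.000906) and by a further 0.80 by origin (SE 0.24, limma adjusted p = 0.0312). The heme-sensing repressor Nr1d1 was lower by origin, from 736 ± 134 to 353 ± 160 (log2 fold change -1.19, SE 0.30). Rxrb was lower in MCD_MoKCs than in Chow_EmKCs (-0.47, SE 0.16, limma adjusted p = 0.042), and missed the threshold without the filter on low values (0.0557) and with a term for library number (0.0589).

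In the ETS family of PU.1 and SPIC, 1 of 12 measured genes was higher by origin and none lower. The repressor Etv3 rose from 750 ± 137 in MCD_EmKCs to 1767 ± 497 in MCD_MoKCs (log2 fold change 1.19, SE 0.25, limma adjusted p = 0.00188). Against Chow_EmKCs, Etv3 (1.82) and Ets1 (1.09) were higher and Elf4 (-0.65) lower; edgeR, DESeq2 and 2 other settings did not call Elf4 (adjusted p = 0.0581 to 0.0608). Of 7 tested relatives of Irf8, Irf7, the amplifier of type I interferon, was lower in each comparison, with means of 20977 ± 3534, 14447 ± 1224 and 10273 ± 2338; by origin it missed the threshold under quantile normalization (limma adjusted p = 0.0874). Irf9, the DNA-binding part of the interferon response complex, fell with the diet by 0.77 on the log2 scale, and Irf3 was lower in MCD_MoKCs than in Chow_EmKCs (-0.65). Irf5 was higher in MCD_MoKCs than in MCD_EmKCs (0.45, SE 0.12, limma adjusted p = 0.0121).

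The stress-induced small MAF gene Maff rose with the diet from 123 ± 57.1 to 423 ± 105 (1.89, SE 0.31, limma adjusted p = 0.000334). Zeb1, the relative of Zeb2, was low, at 9.06 to 221 normalised reads, and passed no test. In the KLF family, 9 of 13 genes were tested: Klf9 (0.88) and Klf6 (0.48) rose with the diet, the latter not under quantile normalization (limma adjusted p = 0.292), and Klf10 was lower by origin (-0.61, SE 0.15, limma adjusted p = 0.0072).

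Among 31 other macrophage factors tested, Egr2 had means of 255 ± 125, 1869 ± 573 and 3803 ± 686 and rose by 2.98 with the diet and 1.06 by origin (limma adjusted p = 3.47e-08 and 0.00817). Mef2c stood at 4.67 to 26.9 in Chow_EmKCs, 0 to 96.4 in MCD_EmKCs and 97.4 to 759 in MCD_MoKCs. Runx3 stood at 0 to 92.2, 0 to 109 and 63.3 to 3424, and Bhlhe41 at 0 to 33.9, 0 to 220 and 88.2 to 1466. All 3 were past the threshold in MCD_MoKCs against Chow_EmKCs (limma adjusted p = 8.15e-05, 0.00194 and 6.33e-05). Their libraries were low and spread widely, so their fold changes depend on the pseudocount and are not given. Of 13 cofactors, none changed with the diet, and the coactivator Ncoa1 (-1.34, SE 0.24, limma adjusted p = 0.000303) and the corepressor Nrip1 (-0.74, SE 0.23, limma adjusted p = 0.0417) were lower by origin. Nrip1 missed the threshold without the filter, with a term for library number and under quantile normalization (limma adjusted p = 0.0608 to 0.0894).

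Known target genes were counted beside the factors. Of 12 LXR targets, 1 rose and none fell with the diet, in the comparison in which Nr1h3 fell. By origin, 4 were lower and none higher, and in MCD_MoKCs against Chow_EmKCs 1 was higher and 5 lower. The 1 that rose with the diet was the desaturase Scd2, from 573 ± 208 to 1082 ± 204 (0.99, SE 0.24, limma adjusted p = 0.017). By origin, the apolipoprotein Apoc1 fell from 16920.4 ± 3223 to 2560.2 ± 1298 (-2.85, SE 0.26, limma adjusted p = 6.53e-08). The desaturase Scd1 was lower by origin by -2.37 (SE 0.40) and the scavenger protein gene Cd5l by -0.89 (SE 0.12). The median log2 fold change of the 12 was 0.16 with the diet and -0.44 by origin. Cholesterol efflux genes among them, Abca1 at -0.52 (SE 0.24) and Abcg1 at -0.12 (SE 0.19) by origin, did not pass the threshold.

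In the iron-recycling list linked to SPIC, 4 of 5 genes were lower by origin. These were the hemoglobin scavenger receptor Cd163 (-2.65, SE 0.25), the iron exporter Slc40a1 (-1.31, SE 0.13), the adhesion molecule Vcam1 (-0.95, SE 0.22) and heme oxygenase Hmox1 (-0.76, SE 0.14). With the diet 1 of the 5 rose, Vcam1, from 19545 ± 5362 to 43002 ± 16556 (1.11, SE 0.23, limma adjusted p = 0.00544). Of 6 genes linked to c-MAF, none changed with the diet and 3 were lower by origin: Cd163, which is on both lists, the mannose receptor Mrc1 (-0.82, SE 0.16) and the complement gene C1qc (-0.56, SE 0.18), which edgeR, DESeq2 and the unfiltered fit did not call (adjusted p = 0.0528 to 0.0543). C1qa was lower in MCD_MoKCs than in Chow_EmKCs (-0.76, SE 0.16).

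Of 14 targets of PU.1 and IRF8, 1 rose and 2 fell with the diet, and 2 were higher and 1 lower by origin. Csf1r, the receptor for the survival factor of macrophages, fell in each step, with means of 98909 ± 7563, 78415 ± 7781 and 54830.2 ± 6501 (log2 fold changes of -0.34 and -0.52, limma adjusted p = 0.0462 and 0.000347). The first step was not called by edgeR, DESeq2, the replicate block or quantile normalization (adjusted p = 0.0532 to 0.271), and the second not under quantile normalization (0.0678). Ncf4, a subunit of the phagocyte oxidase, fell with the diet and was higher by origin, with means of 2650.5 ± 333, 1447 ± 101 and 2676 ± 278. Il12b rose with the diet from 39.4 ± 14.5 to 165 ± 71.9 (2.00, SE 0.38), and Btk was lower in MCD_MoKCs than in Chow_EmKCs (-0.94, SE 0.21). The median log2 fold change of the 14 was 0.05 by origin. Target lists and factors share the same libraries, and no relation between them was tested.

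**Figure D5:**
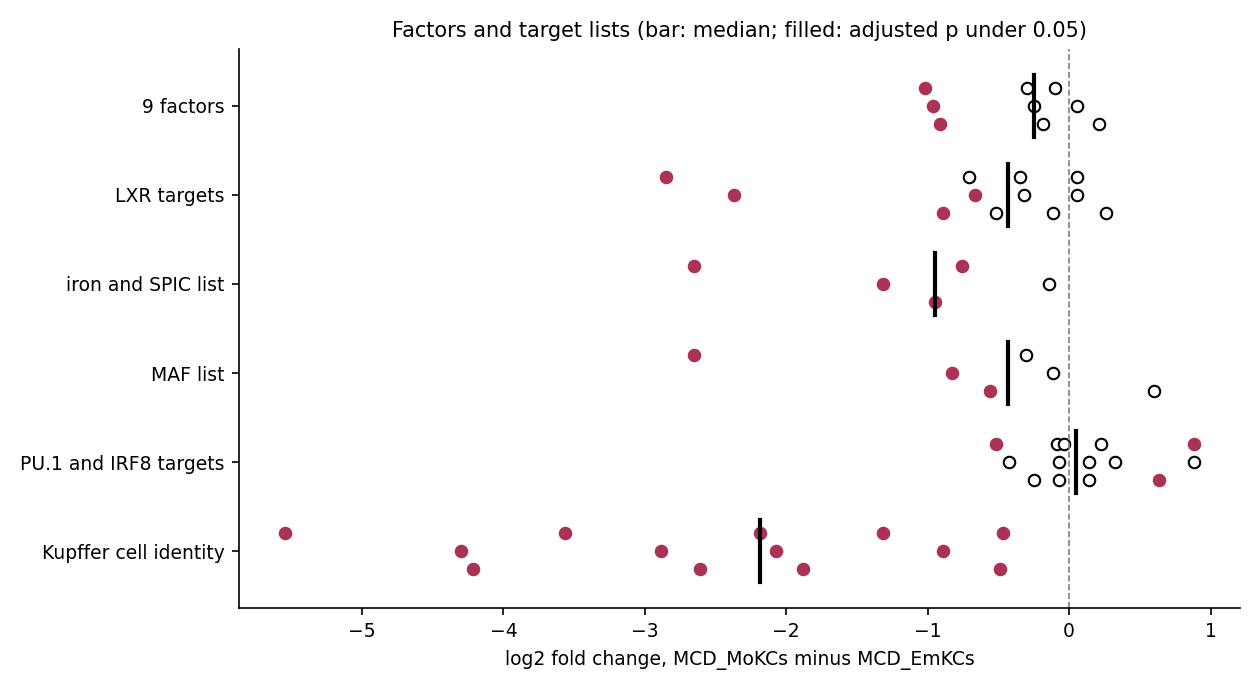
Log2 fold changes of MCD_MoKCs against MCD_EmKCs for the 9 factors and for the genes of 5 lists; each point is 1 gene, filled points passed a limma adjusted p under 0.05, and black bars are medians. All 13 Kupffer cell identity genes, 4 of 5 genes of the iron and SPIC list and 4 of 12 LXR targets lie lower and filled, while targets of PU.1 and IRF8 have a median of 0.05. The identity genes include Timd4, on which these groups were sorted apart. They share Cd5l with the LXR targets and Slc40a1 with the iron and SPIC list.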

How the data were processed

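RNA-seq values of 19 libraries in 3 groups, taken from the labels' titles, were analysed. The authors deposited 1 table of a normalised read signal; in every library 100% of values were whole multiples of 1 step within 0.001 reads, so they are reads over a size factor. STAR, DESeq2 and mm10 are named, without versions, in the submitters' processing notes; the sources used here name no counting tool or strand. Of 33919 identifiers, 29062 matched a symbol. Positions and exon lengths are from the GENCODE annotation of the same build, promoters from RefSeq.

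Genes reaching a value of 10 in 6 or more libraries (14875) were tested with limma 3.58.1 in R 4.3.3 on log2(value + 1), with trend and robust variance, 1 mean per group over 19 libraries, 3 contrasts and Benjamini-Hochberg adjustment over all genes at 0.05. Fold changes on this scale understate the change of low genes. Ratios were tested by exact permutation (scipy 1.17.1). Alternatives used edgeR 4.0.16 and DESeq2 1.42.0 on the recovered reads. As a check of the code, the fit was run on simulated independent counts, for MCD_EmKCs against Chow_EmKCs only. Their spread was not matched to these libraries, so error rates in these data were not tested. The 9 factors, the gene lists and the tests were chosen with earlier results of these data known. Beyond the factors and ratio partners, the text names from each family, cofactor and target list up to 4 genes past the threshold with the largest fold change and a mean of at least 100 in the higher group; Abca1, Abcg1 and the antisense genes were added after their values were seen. A few results under these rules, 1 ratio included, are not reported here. Reads carry no molecular identifiers, so precision is given by the spread between libraries. Depth ran from 11642240 to 30983487 reads.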

Additional observations from a re-analysis of the deposited data

Results flagged for a closer look

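Zeb2 stood at 18814 normalised reads in MCD_EmKCs 1, far from the other 5 libraries of that group, which ran from 5078 to 8107. Of 27 groups of values examined (9 factors in 3 groups), this was the only one with such a sample, and chance gives about 1 in 20 groups. The antisense gene Zeb2os had its highest value, 2547, in the same library.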

How the results depend on the processing

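The counts of factors past the threshold, 1 for diet, 3 for origin and 4 for both, and of genes, 607, 1568 and 2493, stayed within 1.5 times under a pseudocount of 10, no filter, quantile normalization, edgeR (554, 1325 and 2086 genes), DESeq2 (904, 1846 and 2588), a term for library number and leaving out each library. Replicate numbers did not pair the samples (18 same-numbered pairs, correlation of deviations -0.074 to 0.076, median 0.018), and a fit with the replicate block gave 608, 1658 and 2474 genes. With library numbers up to 33 only, 179, 870 and 1257 genes passed, with 0 factors for diet and 2 for both. With numbers from 37 only, 263, 565 and 1288 passed, with 2 factors each for diet (Nr1h3 and Zeb2) and both. For origin that set also gave 2 factors, Rxra lower and Zeb2 higher (0.97, limma adjusted p = 0.00874). Spic (limma adjusted p = 0.268) and Klf2 (0.227) missed the threshold there. With MCD_MoKCs 4 to 7 only, chosen after the data were seen, 1010 genes passed for origin and 2 factors for both; Spic (-0.42, limma adjusted p = 0.184) and Klf2 (-0.72, 0.0563) missed it. These settings hold fewer libraries. Of 136 calls of listed genes other than cell type markers, the factors included, 0 changed sign and 24 missed the threshold in at least 1 of 7 settings that keep all libraries.

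Sign changes fell on comparisons of a factor or ratio that did not pass the threshold in the full data. For diet they were Maf (0.21), Zeb2 (0.49), Irf8 (0.0099) and Klf4 (-0.19) up to 33, Rxra (-0.18) and Klf2 (-0.14) from 37, and Rxra (-0.033) under quantile normalization. For origin they were Zeb2 (-0.33) and Klf4 (0.032) up to 33, and Zeb2 (-0.33), Irf8 (-0.012), Spi1 (0.0079) and Klf4 (0.65) with MCD_MoKCs 1 to 3 only. For both they were Zeb2 (-0.46), Irf8 (-0.016) and Klf4 (0.75) with MCD_MoKCs 1 to 3 only, and Klf4 under edgeR (0.0071), DESeq2 (0.019) and the replicate block (0.060). Among log2 ratios they were Klf2 to Klf4 from 37 for diet (-0.53) and origin (0.27). Leaving out 1 library gave ranges that crossed 0 for diet in Zeb2 (-0.38 to 0.00029), Rxra (-0.065 to 0.20), Irf8 (-0.043 to 0.029) and Klf4 (-0.053 to 0.20), for both in Zeb2 (-0.028 to 0.20) and Klf4 (-0.25 to 0.085), and for the diet difference of the log2 ratios Zeb2 to Zeb1 (-0.49 to 0.54) and Klf2 to Klf4 (-0.041 to 0.27). Their cause was not tested.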
